A study of Mus musculus with 9 samples.

Results

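The core and linker histone genes of the mouse were described in 9 RNA-seq libraries of morulae. Members were all rows whose symbol begins with H1f0 to H1f5, H2ac, H2bc, H3c or H4c and a number, H2az, H3f3 or an older Hist name. Rows with -ps in the symbol were left out. That gave 72 of 53819 rows. By symbol, 64 were replication-dependent histone genes (5 of H1, 18 of H2A, 17 of H2B, 12 of H3 and 12 of H4). The other 8 were replacement rows: H1f0, H1f10, H2az1, H2az2, H3f3a, H3f3b, the H3f3a retrocopy H3f3c and the antisense transcript H3f3aos. H1f10 entered because its symbol begins with H1f1. GENCODE M21 annotates H3f3c as a processed pseudogene and the replication-dependent H2ac14 as an unprocessed pseudogene. Both stayed among the members, since the rule reads the symbol only. In the RefSeq annotation of GRCm38.p6, 53 of the replication-dependent genes lie on chromosome 13 and 10 on chromosome 3.

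The embryos were C57BL/6J morulae made by in vitro fertilization with the Nakagata procedure and CARD media, and groups differed in the treatment of the sire. There were 3 libraries from control sires, 3 from sires given 6% ethanol (EtOH in the labels) and 3 from sires given 10% ethanol. The comparisons ask whether paternal alcohol intake before conception changed gene expression in the morula. The labels give no age, no number of embryos or sires behind a library and no statement that libraries came from separate litters or cultures, so the p-values measure only the spread between these libraries. They give no treatment of the dams or of the embryos.

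Library totals ran from 6263465 to 27619281 counts. In 4 files (control 2, 6% ethanol 1, 10% ethanol 1 and 10% ethanol 2) the header of the count column is long and names the aligner, and these were the 4 deepest libraries; the other 5 headers are short. The labels do not say what the header form stands for. All 20 morula identity genes on a fixed list (among them Pou5f1, Nanog and Cdx2) had counts, with summed levels of 3540 to 6576 CPM (counts scaled to the size of the library with TMM factors, the unit of every level below). The lists of other cell types summed to 7.80 to 56.4 CPM for 14 oocyte genes, with Nobox and Figla at 0 everywhere, and to 0 to 3.51 CPM for 10 sperm genes, with 6 at 0 everywhere. The 14 cumulus and granulosa genes summed to 234 to 558 CPM, most of it Nr5a2 (229.8 to 544 CPM), which the early embryo also expresses. Amhr2, also on that list, ran from 0.813 CPM in control 1 to 60.5 CPM in 6% ethanol 2 and 69.3 CPM in 10% ethanol 3. Inhba, Fshr, Cyp11a1, Ptx3 and Has2 were at 0 everywhere. Because each library is a bulk sample, fewer cells of a type and less RNA per cell cannot be told apart.

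Replication-dependent histone genes supply the bulk of chromatin protein during S phase. Their messages as a rule end just after a conserved stem-loop, which the stem-loop binding protein SLBP holds, and carry no poly(A) tail. Replacement histone genes are transcribed through the cell cycle, have introns or are spread over the genome, and make ordinary polyadenylated messages; the H3 variant made from H3f3a and H3f3b and the H2A variant H2A.Z are laid down outside replication, and both are abundant in the early embryo. Total RNA is named as the extracted molecule, and the labels do not say whether the libraries were selected or primed on poly(A).

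The stem-loop itself is shown first for 6 replication-dependent genes among those with the most counts in their class, with the 16-base motif in capitals and 5 flanking bases on each side in lower case. The motif was GGCNC, then TTTT and NN, then GNGCC, where N is any base and the outer arms pair. Sequences were read along the transcript strand from GENCODE M21 (build GRCm38), and the motif was searched on that strand only.
H1f2: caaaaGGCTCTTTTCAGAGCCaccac
H2ac6: ccaaaGGCTCTTTTCAGAGCCcccac
H2bc9: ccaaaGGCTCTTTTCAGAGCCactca
H3c7: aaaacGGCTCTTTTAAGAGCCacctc
H4c9: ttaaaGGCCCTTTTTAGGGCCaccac
H4c4: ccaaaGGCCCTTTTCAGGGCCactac

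The same element stands below for 4 genes with few or no counts, for comparison of the letters.
H2ac4: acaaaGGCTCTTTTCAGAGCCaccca
H2bc11: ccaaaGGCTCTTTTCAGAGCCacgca
H3c2: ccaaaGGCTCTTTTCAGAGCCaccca
H4c6: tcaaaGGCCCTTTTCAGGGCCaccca

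In these genes, chosen after their values were seen, the letters of the element did not separate the sets. The same 16 bases stand in H1f2, H2ac6 and H2bc9 as in H2ac4, H2bc11 and H3c2. The genes shown differed in the annotated transcript beyond the motif. The GENCODE model goes on for 840 bases after the motif in H1f2, 2010 in H2ac6, 1214 in H2bc9, 365 in H3c7, 330 in H4c9 and 770 in H4c4. It ends 11 bases after the motif in H2ac4, 23 in H2bc11, 51 in H3c2 and 33 in H4c6. A long end did not always go with counts. H4c14 has 1257 bases after the motif and 2 counts over all libraries, H1f4 1153 and 1, and H4c3 454 and 1. The motif was found in 38 of the 63 replication-dependent genes that matched a GENCODE model, in none of the 8 replacement rows, and in 0.219 percent of all 21901 protein-coding genes of that annotation.

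Replacement messages as a rule carry a poly(A) signal near their end instead, shown in capitals with 10 bases on each side for 3 members.
H1f0: aaaactttaaAATAAAactggaaagg
H2az2: aatgcacagaAATAAAgaaactagca
H3f3a: tttgaaaaatAATAAAagtaccaata

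AATAAA stood within the last 40 bases of a protein-coding transcript for 5 of the 8 replacement rows (H1f0, H1f10, H2az1, H2az2 and H3f3a) and for 9 of the 63 matched replication-dependent genes, among them H1f2, H4c11, H2ac8 and H2bc21. Over all protein-coding genes of the annotation the share was 64.1 percent. H3f3c, H3f3aos and H2ac14 have no protein-coding model and could not match, and models that hold only the coding sequence lack the message end. A match is a description of the letters, and no match says only that they are not in this window.

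The 2 classes lay far apart in these libraries. Over all 9 libraries the 64 replication-dependent genes held 4972 counts and the 8 replacement rows 279839. Of the replication-dependent genes, 22 had no count in any library, 22 had 1 to 9 counts in all and 20 had 10 or more. A count of 0 over all libraries allows a level of up to 0.0219 CPM, taken as 3 counts of the total and covering counting error only. Of the replacement rows, none was at 0 and 7 had 10 or more counts. Among all rows 50.6 percent were at 0 and 35.8 percent had 10 or more. Of the replication-dependent genes 34.4 percent were at 0 and 31.2 percent had 10 or more. They were thus at 0 less often than all rows, and reached 10 counts slightly less often.

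Within the replication-dependent class the H4 genes took most of the counts. H4 held 72.5 percent, H1 12.5 percent, H2B 10.4 percent, H2A 2.37 percent and H3 2.17 percent. All 5 H1 genes had at least 1 count, while 10 of 18 H2A, 5 of 17 H2B, 5 of 12 H3 and 2 of 12 H4 genes were at 0 throughout. A handful of genes made up the sum: H4c11 had 2772 counts, H4c9 655, H1f2 414, H2bc4 281, H2bc9 171 and H4c4 142, which together came to 89.2 percent of the class. H4c11 alone was 55.8 percent, and 2540 of its counts came from the library 10% ethanol 2.

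**Figure D1:**
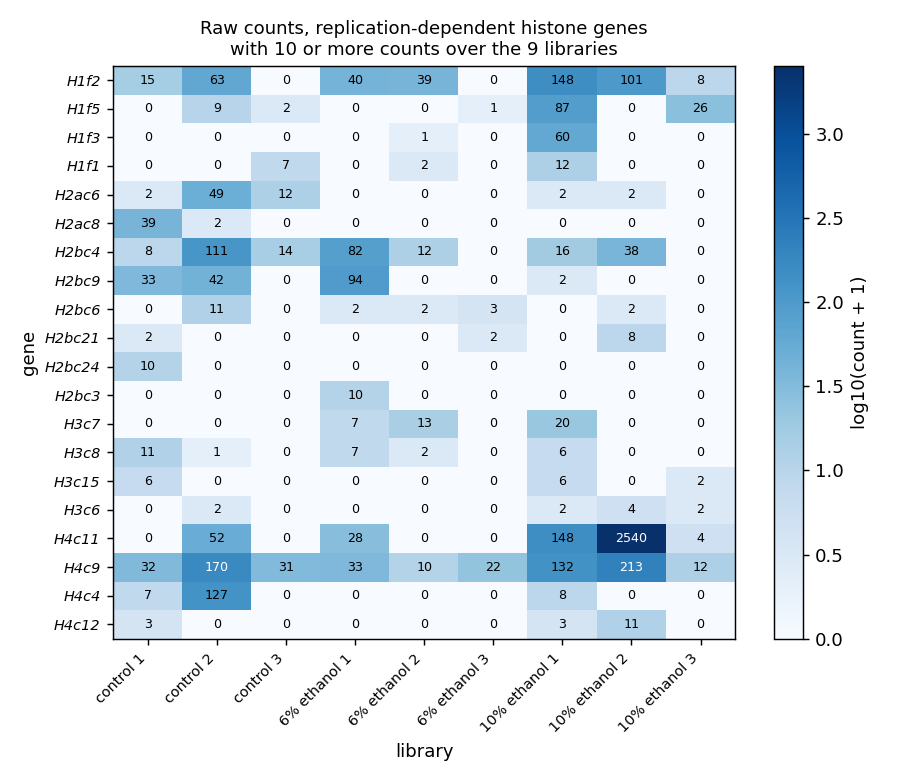
Raw counts in each of the 9 libraries (columns) for the 20 replication-dependent histone genes with 10 or more counts in all (rows, by class); colour is log10(count + 1). H4c9 is the only row with counts in every library, and the darkest cell is H4c11 with 2540 counts in 10% ethanol 2.

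Counts moved with the length of annotated transcript after the stem-loop. Of 17 genes with the motif and more than 100 bases after it, 11 had 10 or more counts and 1 was at 0, and together they held 1648 counts. Of 21 genes with 100 bases or fewer after the motif, 1 (H2bc3, at 10 counts) reached 10 and 10 were at 0, and together they held 39 counts. The models in these sets also differed in length, with medians of 1261 and 485 bases, and in the share of their 75-base stretches found in no other gene of the annotation, with medians of 77.9 and 43.4 percent. Among genes with at least 50 percent unique stretches, 9 of 14 with the longer end and 1 of 8 with the shorter end reached 10 counts. This is a description over genes, which are not replicates, and the parts of transcript length, shared sequence and poly(A) in it were not tested. The rest of the counts came from H2bc24, which matched no model, and from 25 genes in whose models the motif was not found. The 25 include H4c11, whose model ends in a poly(A) signal, H2bc4 and H1f5, and 11 of them have models that hold only the coding sequence.

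**Figure D2:**
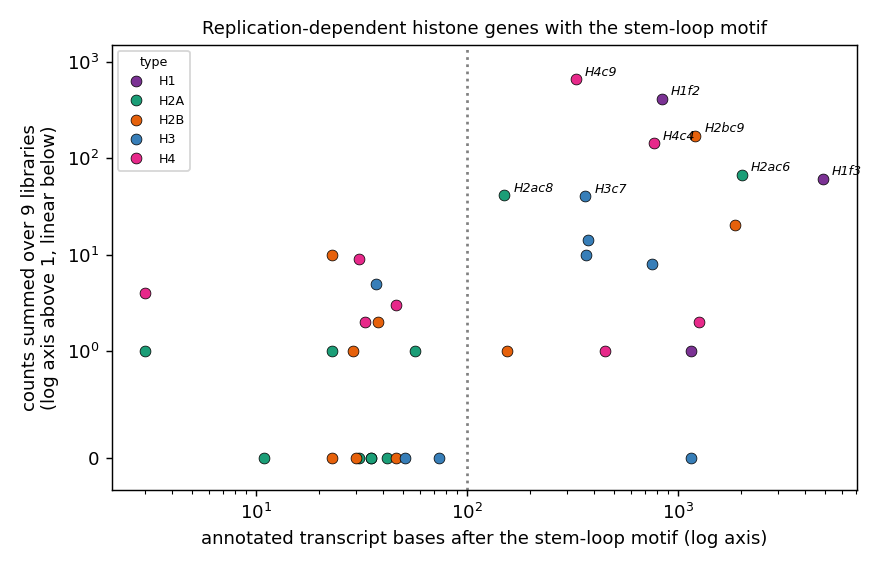
Counts summed over the 9 libraries (vertical, log axis above 1 and linear below) against annotated transcript bases after the stem-loop motif (horizontal, log axis) for the 38 replication-dependent genes with the motif, coloured by histone type. To the right of the dotted line at 100 bases 11 of 17 genes reached 10 counts, and to its left 1 of 21 did.

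H4c9, which encodes histone H4, was the only replication-dependent gene counted in every library. Its level was 2.60, 6.12 and 4.53 CPM in controls, 1.39, 1.90 and 2.41 CPM at 6% ethanol and 6.88, 7.77 and 1.36 CPM at 10% ethanol. The 3 libraries at 6% ethanol all lay below the 3 controls, and those at 10% ethanol spanned both. H4c11, another H4 gene, was at 0, 1.87 and 0 CPM in controls, at 1.18, 0 and 0 CPM at 6% ethanol and at 7.72, 92.7 and 0.454 CPM at 10% ethanol. Its high values were in 10% ethanol 1 and 10% ethanol 2, both with the long header, and the short-header library of that group had 4 counts. H1f2, a linker histone gene, had 1.22, 2.27 and 0 CPM in controls, 1.69, 7.42 and 0 CPM at 6% ethanol and 7.72, 3.68 and 0.907 CPM at 10% ethanol, so all groups overlapped.

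Both tested H2B genes were missing from some libraries. H2bc4 had 0.650, 3.99 and 2.05 CPM in controls, 3.46, 2.28 and 0 CPM at 6% ethanol and 0.834, 1.39 and 0 CPM at 10% ethanol. H2bc9 had 2.68, 1.51 and 0 CPM in controls, 3.97, 0 and 0 CPM at 6% ethanol and 0.104, 0 and 0 CPM at 10% ethanol. Both genes were at 0 in 6% ethanol 3 and 10% ethanol 3, and H2bc9 rested on 33, 42 and 94 counts in control 1, control 2 and 6% ethanol 1. H2bc6 reached 0.396 CPM at most.

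The other leading genes of each histone type were counted in 1 to 5 of the 9 libraries. Of the H1 genes, H1f5 had 87 counts in 10% ethanol 1, 26 in 10% ethanol 3 and at most 9 elsewhere, and H1f3 had 60 of its 61 counts in 10% ethanol 1. Of the H2A genes, H2ac6 had 49 of 67 counts in control 2, H2ac8 had 39 of 41 in control 1, and the next by mean CPM, H2ac13, had 1 count in all. Of the H3 genes, H3c7 had 13 counts in 6% ethanol 2, 20 in 10% ethanol 1 and 7 in 6% ethanol 1, while H3c8 and H3c15 had 27 and 14 counts in all. H4c4 had 127 of 142 counts in control 2. No group held the high library of all these genes.

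Some members cannot be counted apart from other annotated genes. H2ac19, H3c14 and H2bc23 have no 75-base stretch of their own in the annotation, and 28 of the 63 matched genes have under 50 percent unique stretches. Those 28 genes held 70 counts, or 1.41 percent of the class. The sources used here do not give how reads matching several genes were handled, so a 0 for such a gene does not show that its message was missing.

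Summed over the class, the replication-dependent genes came to 14.5, 23.5 and 9.79 CPM in controls, 13.3, 15.6 and 3.07 CPM at 6% ethanol and 34.6, 107 and 6.12 CPM at 10% ethanol. The means were 15.9 ± 6.95, 10.6 ± 6.66 and 49.2 ± 52.0 CPM (SD, n = 3 each). The value at 10% ethanol rested on 1 gene in 1 library: without 10% ethanol 2 the mean was 20.3 CPM, and without H4c11 the means were 15.3 ± 5.94 CPM in controls, 10.2 ± 6.46 CPM at 6% ethanol and 15.6 ± 10.6 CPM at 10% ethanol. By header form, the sum without H4c11 averaged 18.7 ± 6.77 CPM in the 4 long-header libraries and 9.72 ± 5.42 CPM in the 5 short-header ones. The number of replication-dependent genes with a count ran from 14 to 20 in the long-header libraries and from 4 to 17 in the short-header ones, which were shallower. The number expected at the depth of the smallest library ran from 9.72 to 15.0 in long-header libraries and from 3.32 to 15.5 in short-header ones. The ribosomal RNA gene Rn18s was highest in 10% ethanol 1 at 1.92 percent and control 1 at 1.28 percent of counts, which had 19 and 17 of the genes. It took 0.0559 percent in control 2, which had 20, and 0.0234 percent in 6% ethanol 3, which had 4; its part in the result was not tested.

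Replacement histone genes took nearly all the counts of the members. Their sum was 1700, 1339 and 3221 CPM in controls, 1755, 5843 and 3522 CPM at 6% ethanol and 1811, 1646 and 1748 CPM at 10% ethanol. The share of replication-dependent genes in the CPM of all members ran from 0.0871 percent in 6% ethanol 3 to 6.11 percent in 10% ethanol 2. It is a share of counts, not of the RNA in the embryo. Selection or priming on poly(A) and the handling of reads matching several genes are not stated. The 3 libraries with the highest replacement sums, control 3, 6% ethanol 2 and 6% ethanol 3, all have the short header, and the 4 long-header libraries averaged 1638 ± 211 CPM.

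Scaled to transcript length, the order of the genes was H3f3a at 489.8, H2az1 at 378, H3f3c at 306, H3f3b at 223, H2az2 at 76.4 and H1f0 at 9.13 CPM per kilobase, as means of 9 libraries. The retrocopy's place rests on a coding-only model of 411 bases. The highest replication-dependent values on the same scale were 14.9 for H4c11, 5.34 for H4c9 and 1.77 for H1f2. Libraries varied several-fold in the leading genes, so the order of H3f3a, H2az1 and H3f3b is that of means whose ranges overlap.

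H3f3a had 815, 581 and 1949 CPM in controls, 909, 3699 and 1950 CPM at 6% ethanol and 922, 756 and 944 CPM at 10% ethanol. The libraries at 10% ethanol lay close together, and control 3, 6% ethanol 2 and 6% ethanol 3 stood above all others. H3f3b, which encodes the same protein from another gene, had 440, 343 and 376 CPM in controls, 382, 458 and 919 CPM at 6% ethanol and 379, 409 and 287 CPM at 10% ethanol. Its single high library was 6% ethanol 3. The ratio of H3f3a to H3f3b counts was 1.69 to 2.43 in 6 libraries, and 3.29 in 10% ethanol 3, 5.19 in control 3 and 8.07 in 6% ethanol 2.

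H2az1, an H2A.Z gene that the mouse embryo needs, had 137, 229 and 491 CPM in controls, 305, 1074 and 416 CPM at 6% ethanol and 340, 317 and 332 CPM at 10% ethanol. H2az2, which encodes a near-identical H2A.Z, had 266, 105.5 and 163 CPM in controls, 76.9, 140 and 32.2 CPM at 6% ethanol and 126, 110 and 104 CPM at 10% ethanol. H2az1 exceeded H2az2 in every library except control 1, where the count ratio was 0.514. In the other libraries it was 2.17 and 3.01 in controls and 2.70, 2.89 and 3.20 at 10% ethanol. At 6% ethanol it was 3.97, 7.65 and 12.9, the 3 highest ratios. The ratio was not a planned result, and how often other gene pairs separate the groups in this way was not taken. Each gene alone overlapped between the groups in every comparison.

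H1f0, the replacement linker histone, varied widely between libraries, with 12.6, 53.5 and 1.61 CPM in controls, 46.8, 3.23 and 2.30 CPM at 6% ethanol and 12.8, 23.2 and 12.9 CPM at 10% ethanol. Its highest values were in control 2 and 6% ethanol 1, both long-header, and it averaged 34.1 ± 19.3 CPM in long-header and 6.53 ± 5.72 CPM in short-header libraries. H1f10, another linker histone gene, had 5 counts in 10% ethanol 1 and 4 in 10% ethanol 2 and none elsewhere. H3f3aos had 26 counts in 10% ethanol 1 and 1 in 10% ethanol 3; it is annotated as antisense to H3f3a, and no strand setting is stated, so reads from any stretch where the 2 overlap cannot be told apart.

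**Figure D3:**
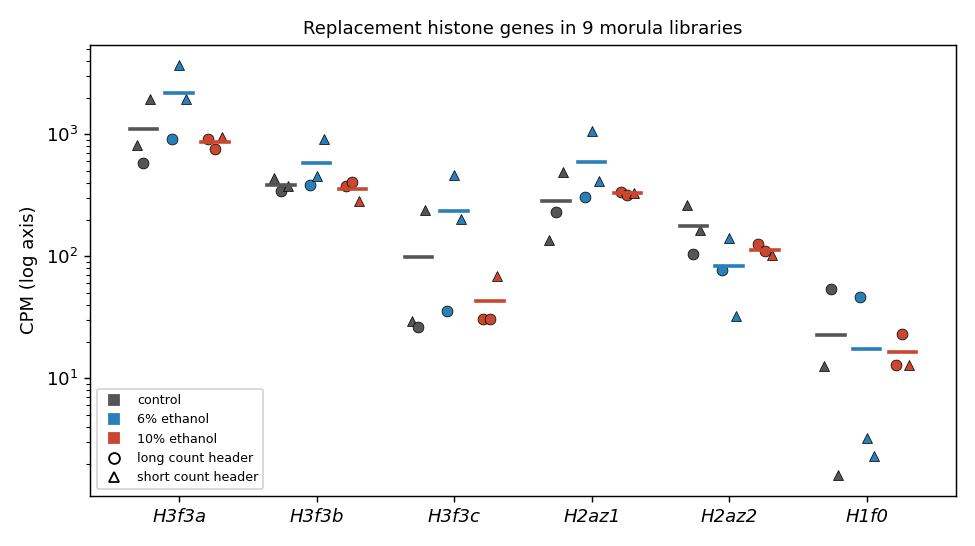
CPM (log axis) of 6 replacement histone genes in each library; within each gene the groups run from control to 6% to 10% ethanol, bars are group means of 3 libraries, circles have the long and triangles the short count header. For H3f3a, H3f3c and H2az1 the highest points are short-header libraries of the control and 6% ethanol groups, and the 10% ethanol libraries of H2az1 lie within 317 to 340 CPM.

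The retrocopy H3f3c shares most of its sequence with H3f3a. Its 411-base coding model differs from H3f3a at 4 bases (99.0 percent identical). Bases 55 to 144 of both are shown, since they hold 3 of the 4 differences, in capitals, which are what a read would need to cover to tell the genes apart.
H3f3c: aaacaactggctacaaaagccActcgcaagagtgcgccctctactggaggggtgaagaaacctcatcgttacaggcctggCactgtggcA
H3f3a: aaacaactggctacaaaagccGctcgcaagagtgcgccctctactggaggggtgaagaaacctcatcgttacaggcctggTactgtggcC

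H3f3c had 29.5, 26.4 and 240.4 CPM in controls, 35.6, 469 and 203 CPM at 6% ethanol and 30.7, 30.8 and 68.7 CPM at 10% ethanol. It was high where H3f3a was high, though not in proportion. As a share of H3f3a counts it was 3.62, 4.54 and 12.3 percent in controls, 3.92, 12.7 and 10.4 percent at 6% ethanol and 3.33, 4.07 and 7.28 percent at 10% ethanol. The 4 long-header libraries lay within 3.33 to 4.54 percent, and of the short-header libraries only control 1, at 3.62 percent, lay in that range. Only 40.1 percent of the 75-base stretches of H3f3c are unique in the annotation and 57.3 percent are shared with H3f3a, so its counts are uncertain. Whether the header form stands for a step that handled such reads in another way was not tested.

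**Figure D4:**
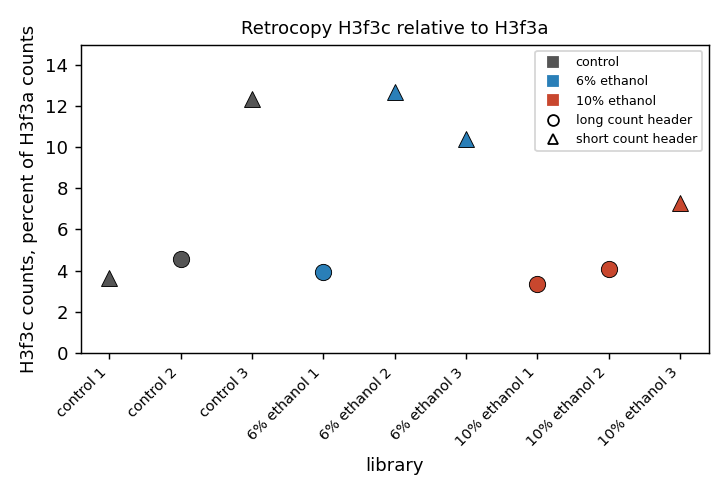
Counts of the retrocopy H3f3c as a percent of H3f3a counts (vertical) in each of the 9 libraries (horizontal, control to 10% ethanol); circles have the long and triangles the short count header. The 4 circles lie between 3.33 and 4.54 percent, and 4 of the 5 triangles lie between 7.28 and 12.7 percent.

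Only 11 of the 72 members passed the filter on low counts and were tested, 5 of 64 replication-dependent genes (H1f2, H2bc4, H2bc9, H4c9 and H4c11) and 6 of 8 replacement rows (H3f3a, H3f3b, H3f3c, H2az1, H2az2 and H1f0). Of all rows 23.2 percent were tested. A gene that passed through the group where it is high had to differ to some extent, so counts over the tested members describe those genes alone. Both ethanol groups were compared with the same 3 controls.

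At 6% ethanol against control, H3f3a averaged 2186 ± 1410 CPM and 1115 ± 732 CPM, a log2 fold change of 0.97 ± 0.56 (SE). H2az1 averaged 598 ± 416 CPM at 6% ethanol and 285 ± 184 CPM in controls (log2 fold change 1.07 ± 0.57), and H3f3b 587 ± 290 CPM and 387 ± 49.4 CPM (0.60 ± 0.43). H2az2 had the opposite sign, at 83.1 ± 54.3 CPM at 6% ethanol and 178 ± 81.3 CPM in controls (-1.10 ± 0.58). H4c9 averaged 1.90 CPM at 6% ethanol and 4.42 CPM in controls (-1.22 ± 1.10). None passed edgeR's quasi-likelihood test with Benjamini-Hochberg adjustment at 0.05, the smallest adjusted p being 0.808 for H2az2, and none had an unadjusted p under 0.05.

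The background of that comparison was as empty: 0.0 percent of 12488 genes passed the adjusted threshold and 6.24 percent had an unadjusted p under 0.05. DESeq2 called 31 genes (0.248 percent), none of them a histone member. H4c9 was the 1 tested member whose libraries at 6% ethanol did not overlap the controls, all of them lower, against 4.72 percent of all tested genes without overlap in that direction. The median log2 fold change was 0.79 over the 6 replacement rows, with 4 above 0 (49.5 percent of all genes were above 0), -0.22 over the 5 replication-dependent genes, with 1 above 0, and -0.014 over all tested genes. The replacement values turned on 1 library each: without 6% ethanol 2 the log2 fold change was 0.36 for H3f3a and 0.34 for H2az1, and without 6% ethanol 3 it was 0.084 for H3f3b. H2az2 was -0.70 without control 1 and -1.70 without 6% ethanol 2.

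At 10% ethanol against control, H3f3a averaged 874 ± 103 CPM at 10% ethanol and 1115 ± 732 CPM in controls, H3f3b 358 ± 63.6 CPM and 387 ± 49.4 CPM, and H2az1 329 ± 11.4 CPM and 285 ± 184 CPM. H2az2 averaged 113 ± 11.4 CPM at 10% ethanol and 178 ± 81.3 CPM in controls (log2 fold change -0.66 ± 0.58). H3f3c averaged 43.4 ± 21.9 CPM at 10% ethanol and 98.8 ± 123 CPM in controls (-1.19 ± 0.96), a difference that came to 0.63 without control 3 and to -0.12 with header form as a term. The 10% ethanol libraries had a smaller SD than the controls in H3f3a, H2az1, H2az2, H3f3c, H1f0, H2bc4 and H2bc9. They had a larger SD in H3f3b, H4c11, H4c9 and H1f2. The difference in SD was not tested, and its share over all tested genes was not taken.

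Larger fitted changes at 10% ethanol were those of sparsely counted genes. H4c11 averaged 33.6 CPM at 10% ethanol and 0.624 CPM in controls (log2 fold change 5.63 ± 2.24, unadjusted p = 0.0264, edgeR adjusted p = 0.9999). Without 10% ethanol 2 its fold change was 2.63, and without control 2, which leaves the remaining controls at 0, the fitted 11.9 depends on the prior count. H2bc9 averaged 0.0348 CPM and 1.40 CPM (-4.98 ± 2.44, unadjusted p = 0.0632), from counts of 2, 0 and 0 at 10% ethanol and 33, 42 and 0 in controls. H1f2 averaged 4.10 CPM at 10% ethanol and 1.16 CPM in controls (1.79 ± 1.77). No member passed edgeR's adjusted threshold, as for 0.0 percent of all tested genes, and 1 had an unadjusted p under 0.05, beside 2.14 percent of all; DESeq2 called 10 genes (0.0801 percent) and no member. No member's groups were without overlap (8.07 percent of all genes). The medians were -0.41 over the replacement rows, with 1 of 6 above 0 (47.1 percent of all genes), 0.27 over the replication-dependent genes, with 3 of 5 above 0, and -0.055 over all tested genes.

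Between the ethanol groups, the members of smallest p were H4c11, H3f3c and H3f3a. H3f3a averaged 874 ± 103 CPM at 10% ethanol and 2186 ± 1410 CPM at 6% ethanol (log2 fold change -1.32 ± 0.57, unadjusted p = 0.0370), and H3f3c 43.4 ± 21.9 CPM and 236 ± 218 CPM (-2.44 ± 0.99, unadjusted p = 0.0295). H4c11 averaged 33.6 CPM at 10% ethanol and 0.394 CPM at 6% ethanol (6.20 ± 2.31, unadjusted p = 0.0193). All 3 had an edgeR adjusted p of 0.806. For H3f3a and H3f3c the libraries overlapped, since 6% ethanol 1 had 909 and 35.6 CPM.

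The size of the H3f3 difference moved with single libraries and with header form. Without 6% ethanol 2 the log2 fold change was -0.69 for H3f3a and -1.43 for H3f3c. In the long-header libraries alone, where 6% ethanol 1 is the only library of its group, it was -0.13 and -0.22. In the short-header ones alone, where 10% ethanol 3 is the only library of its group, it was -1.57 and -2.27. With header form as a term in the model it was -0.78 for H3f3a and -1.21 for H3f3c. H4c11 was 3.24 without 10% ethanol 2 and 5.40 in the long-header libraries alone. No member passed edgeR's adjusted threshold, as for 0.0 percent of all tested genes; 3 had an unadjusted p under 0.05, beside 5.33 percent of all, and DESeq2 called 34 genes (0.272 percent) and no member. No member's groups were without overlap (9.67 percent of all genes). The medians were -0.79 over the replacement rows, with 1 of 6 above 0 (49.5 percent of all genes), 0.45 over the replication-dependent genes, with 3 of 5 above 0, and -0.016 over all tested genes.

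**Figure D5:**
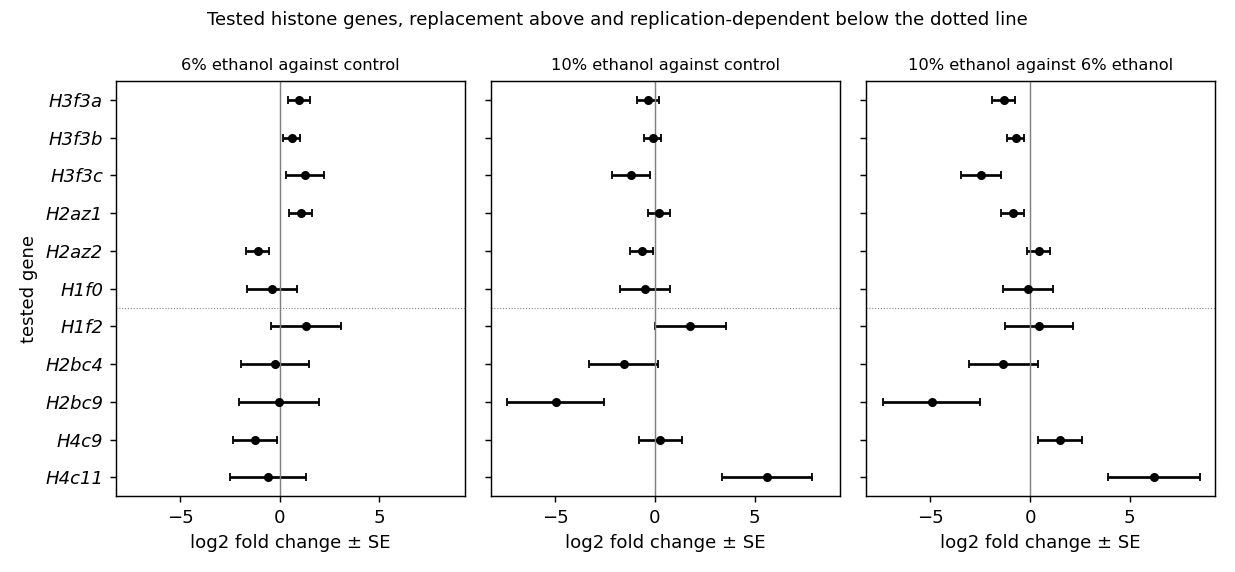
Log2 fold change with its standard error (horizontal) for the 11 tested histone genes (rows) in the comparisons of 6% ethanol with control, 10% ethanol with control and 10% with 6% ethanol, from edgeR. Most bars are shorter for the replacement genes above the dotted line than for the replication-dependent genes below it. Those of H1f0 (SE 1.25 in each comparison) are longer than those of H4c9 (1.10, 1.08 and 1.11). Below the line H4c11 reached 6.20 ± 2.31 and H2bc9 -4.98 ± 2.44.

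Of the fixed list of genes that process histone messages, all 16 found in the files were tested. Lsm10 among them was low, at 0 CPM in 6% ethanol 2 and 6% ethanol 3 and at most 4.89 CPM, in control 2. Of the 16 genes 0 passed in any comparison by edgeR or DESeq2. At 6% ethanol 2 were higher and 2 lower than control with an unadjusted p under 0.05, which 6.24 percent of all tested genes had. Slbp, the stem-loop binding protein gene, had 64.2, 179 and 101 CPM at 6% ethanol and 24.2, 52.7 and 33.5 CPM in controls. The groups did not overlap, as for 3.38 percent of tested genes in that direction (log2 fold change 1.64 ± 0.59, unadjusted p = 0.0154, edgeR adjusted p = 0.799). At 10% ethanol Slbp had 62.9, 33.9 and 48.1 CPM, which overlapped the controls. Npat, the coactivator of replication-dependent histone transcription, had 95.0, 47.7 and 56.4 CPM in controls, 40.4, 479 and 150 CPM at 6% ethanol and 17.5, 24.8 and 119.9 CPM at 10% ethanol. Upf1, which takes part in the decay of histone messages, had 26.3, 30.2 and 12.8 CPM at 6% ethanol and 30.7, 38.7 and 254 CPM in controls. The list's median log2 fold change was 0.30 at 6% ethanol against control, -0.012 at 10% against control and -0.046 at 10% against 6%.

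Of 28 histone chaperone and exchange genes 27 were tested and 0 passed by edgeR or DESeq2 in any comparison. With an unadjusted p under 0.05, 1 was higher at 6% ethanol than in controls and 2 were lower at 10% than at 6% ethanol, beside 6.24 and 5.33 percent of all tested genes. Nap1l1, a chaperone of H2A and H2B, had 390.0, 881 and 946 CPM at 6% ethanol and 272, 272 and 490.4 CPM in controls. Hat1, which acetylates new H4, averaged 287 ± 18.3 CPM at 10% ethanol and 667 ± 315 CPM at 6% ethanol (log2 fold change -1.22 ± 0.48). Atrx, which with Daxx deposits the H3f3 product at repeats, averaged 45.4 ± 44.9 CPM at 10% ethanol and 251 ± 280 CPM at 6% ethanol (-2.47 ± 0.93). The medians were 0.48 at 6% ethanol against control, 0.0086 at 10% against control and -0.30 at 10% against 6%.

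DNA replication genes, among them Pcna and the Mcm helicase, were abundant in the same libraries in which most replication-dependent histone genes had few counts. The 34 genes summed to 5183 to 6119 CPM in controls, 4820 to 7176 CPM at 6% ethanol and 5951 to 6167 CPM at 10% ethanol. Of 33 tested, 0 passed by edgeR or DESeq2 in any comparison, and 1 (Gins3, lower at 10% ethanol than in controls) had an unadjusted p under 0.05, beside 2.14 percent of all tested genes in that comparison. The medians were -0.045, 0.032 and 0.0027 for 6% against control, 10% against control and 10% against 6%.

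Of 17 histone genes outside the symbol rule found in the files, 10 were at 0 in every library, among them the testis genes H1f6, H1f7 and H1f9, and the oocyte linker histone gene H1f8 reached 0.976 CPM at most. The 4 tested were H2ax, H2aj, Macroh2a1 and Cenpa, and 0 passed by edgeR or DESeq2, with none at an unadjusted p under 0.05. Cenpa, the centromeric H3, had 134, 105 and 225 CPM at 6% ethanol and 181, 86.4 and 308 CPM in controls. Macroh2a1 had 23.6, 9.13 and 1.64 CPM at 6% ethanol and 48.1, 18.5 and 53.5 CPM in controls, with overlap between 6% ethanol 1 and control 2 (log2 fold change -1.80 ± 0.90). H2ax, the damage-responsive H2A, averaged 46.0 CPM in controls, 52.0 CPM at 6% ethanol and 57.5 CPM at 10% ethanol.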

How the data were processed

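The deposited values are raw counts of reads per gene, 1 file a library, which the authors made with featureCounts on GRCm39 (mm39), per the submitters' processing notes, which also name DESeq2. The file headers name RNA STAR in 4 files. Versions, annotation, strand setting and the handling of reads that match several genes are not given in the sources used here.

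Members were found by symbol, with 4 rows left out that hold -ps in the symbol. Genes were filtered with filterByExpr by group, leaving 12488. They were scaled with TMM factors on library totals of the kept genes and fitted with edgeR's quasi-likelihood model over all 9 libraries. The CPM values use the same factors on full library totals. Benjamini-Hochberg adjustment ran over every tested gene, and standard errors come from the log2 fold change and F. The common biological coefficient of variation was 0.911. The fit was tested on simulated data. Alternatives were RLE factors, library size alone, a looser filter of 10 counts, DESeq2, header form as a term, each library left out and, chosen after seeing the data, each header form alone and the replacement rows without H3f3c and H3f3aos. Versions used were edgeR 4.0.16, DESeq2 1.42.0 and limma 3.58.1 under R 4.3.3.

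Members and gene lists were chosen with earlier results of these data known. Named genes were all replacement rows, the 3 replication-dependent genes of highest mean CPM per histone type, the 3 tested members of smallest p per direction and comparison, and 2 genes per list, with Slbp and Npat. H3f3c, H3f3aos, H2ax, Cenpa and H1f8, and the genes whose sequences are shown, were added after their values were seen.

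Sequences, transcript lengths and unique 75-base stretches come from GENCODE M21 (GRCm38.p6), to which 71 of 72 members matched through RefSeq accessions or symbols. That build differs from that of the files, so no coordinates are given.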

Additional observations from a re-analysis of the deposited data

How the results depend on the processing

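No paired analysis was possible because the labels give no replicate numbers shared between groups, and numbers taken from the order of accessions pair nothing. No histone member passed the adjusted threshold under any alternative run. Over all genes, where the main test called 0 in each comparison, DESeq2 called 31 at 6% ethanol against control, 10 at 10% against control and 34 at 10% against 6%. The long-header libraries alone gave 3, 9 and 4 in that order, and the short-header libraries alone 48, 2 and 1.

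The median log2 fold change of the replication-dependent genes ranged, with single libraries left out, from -1.34 (without 6% ethanol 1) to 0.52 (without control 2) at 6% against control, from -0.79 (without 10% ethanol 1) to 2.70 (without control 2) at 10% against control, and from 0.47 to 2.24 (without 6% ethanol 2) at 10% against 6%. It was -3.95 at 10% against control in the short-header libraries and 2.38 at 10% against 6% in the long-header ones, against -0.33 there in the short-header ones. With header form as a term it was -0.57 at 6% against control, -0.14 at 10% against control and -0.51 at 10% against 6%. The median of the replacement rows in the long-header libraries was 0.16, 0.21 and 0.033 in the same order of comparisons, and at 10% against control it was 0.094 without control 3 and -0.071 with header form as a term.

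With a library left out, signs turned for H4c11 at 6% against control (-6.34 to 5.70, the positive value without control 2), H2az1 at 10% against control (-0.11 without control 1, to 0.84), H3f3c at 10% against control (-1.65 to 0.63, without control 3) and H2bc9 at 10% against 6% (-7.38 to 2.41, without 6% ethanol 1). In the long-header libraries alone H3f3c was 0.21 and H2az2 0.15 at 10% against control, and in the short-header libraries alone H4c9 was -0.65 at 10% against 6%. H4c11 had all its control counts in control 2 and all its 6% ethanol counts in 6% ethanol 1. H2bc9 had all its 6% ethanol counts in 6% ethanol 1. Leaving out those libraries put the group at 0, so the values fitted without them depend on the prior count. The cause of the other turns was not tested. With library size alone the median of all genes moved to -0.28, -0.18 and 0.13, and changes under that scaling are relative to it. The mean of the replication-dependent sum with a library left out was 12.1 to 19.0 CPM in controls, 8.16 to 14.4 CPM at 6% ethanol and 20.3 to 70.8 CPM at 10% ethanol. With 3 libraries a group and a handful of counts per library, most replication-dependent genes were below what these depths can compare.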
